A study of Homo sapiens with 16 samples.

Results

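The genes described here are the 5 NF-kB subunits and 5 genes for inhibitors and feedback regulators of NF-kB in DU145, an established cell line from a human prostate carcinoma. They were chosen by name: the rows of the count table whose Ensembl identifiers map to NFKB1, NFKB2, REL, RELA, RELB, NFKBIA, NFKBIE, NFKBIZ, TNFAIP3 and BIRC3. That gave 10 of 64792 gene identifiers, and all 10 were among the 14690 that passed the filter on low counts. Each of the 16 libraries is bulk poly(A) RNA of DU145 cells, with 4 independent replicates in each of 4 groups: cells given lactate with I-BET762 (called both treatments), cells given lactate alone, cells given I-BET762 alone, and control cells. I-BET762 inhibits BET proteins by occupying their bromodomains, the pockets that read acetylated lysines on histones. Neither the dose nor the duration of the treatments is in the labels. In the group with both treatments, the field for the cell line names lines other than the DU145 of the titles, and the titles were followed. All groups are of 1 cell line.

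NF-kB proteins pair through a shared Rel homology region. In resting cells most pairs are held in the cytoplasm by IkB proteins, and signals from TNF or Toll-like receptors lead through the IKK kinases to IkB breakdown, after which the pairs enter the nucleus and bind DNA. Several of the genes that NF-kB switches on encode its own brakes, among them IkB-alpha (NFKBIA), IkB-epsilon (NFKBIE) and A20 (TNFAIP3), so their RNA is commonly read as a record of pathway activity. DU145 is known for NF-kB activity without added cytokine.

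The start of 3 of the feedback genes is shown because NF-kB sites near the start are the textbook feature of this group. The windows are from RefSeq on GRCh38.p14, 5′ to 3′ on the gene's own strand, and run from 250 bases before to 50 bases after the annotated start: chr14:35404700-35404999 (minus strand) for NFKBIA, chr6:137867009-137867308 (plus strand) for TNFAIP3 and chr11:102317234-102317533 (plus strand) for BIRC3. Capitals mark matches of either strand to GGGNNNTTCC.
NFKBIA: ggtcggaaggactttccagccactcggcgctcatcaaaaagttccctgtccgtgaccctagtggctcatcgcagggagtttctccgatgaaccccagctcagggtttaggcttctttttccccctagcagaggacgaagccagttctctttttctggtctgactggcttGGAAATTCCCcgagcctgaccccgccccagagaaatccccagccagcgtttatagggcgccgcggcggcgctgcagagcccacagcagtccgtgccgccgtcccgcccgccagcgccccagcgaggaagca
TNFAIP3: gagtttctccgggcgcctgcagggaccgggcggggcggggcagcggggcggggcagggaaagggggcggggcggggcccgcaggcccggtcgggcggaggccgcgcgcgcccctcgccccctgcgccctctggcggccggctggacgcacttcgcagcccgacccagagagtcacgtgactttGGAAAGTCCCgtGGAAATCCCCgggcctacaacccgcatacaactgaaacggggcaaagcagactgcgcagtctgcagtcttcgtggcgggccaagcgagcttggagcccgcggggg
BIRC3: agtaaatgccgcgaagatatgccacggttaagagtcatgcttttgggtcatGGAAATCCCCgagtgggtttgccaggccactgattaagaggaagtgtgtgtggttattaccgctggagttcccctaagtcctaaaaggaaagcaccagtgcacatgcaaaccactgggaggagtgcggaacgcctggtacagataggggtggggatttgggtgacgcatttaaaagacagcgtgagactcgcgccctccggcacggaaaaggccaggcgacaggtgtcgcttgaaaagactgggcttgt
The NFKBIA window holds 1 such match, whose first base is 81 bases before the start. The TNFAIP3 window holds 2, whose first bases are 67 and 55 bases before the start. The BIRC3 window holds 1, 199 bases before the start. Windows were found for 8 of the 10 genes, 13 windows in all, and 7 of these 8 genes had a match in at least 1 window. RELA was the gene without one. Counted by window, 8 of the 13 held a match, where 6.52% of 35116 windows of the same length in the RefSeq table did. Every match is also a match to the looser GGGNNNNNCC, which 58.7% of all windows held. A match is a description of the letters, not a measured binding site.

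Library totals ran from 10711859 to 17173584 counts, and the lowest count of any of the 10 genes in any library was 116 (NFKBIZ in lactate replicate 1). Levels are given as CPM, counts scaled to the size of the library after trimmed mean of M-values (TMM) normalization. The 5 markers of simple epithelium summed to between 1900.0 and 3350 CPM in every library. Of the markers of luminal prostate, KLK3 was at no more than 0.0688 CPM and FOLH1 at 0. Summed markers of leukocytes reached at most 4.17 CPM, of fibroblasts 10.2 CPM and of endothelium 1.73 CPM, with PTPRC, which marks leukocytes, at no more than 0.0733 CPM. The leukocyte sums were 2.83 to 4.17 CPM in lactate libraries and 1.05 to 2.88 CPM in control libraries. The fibroblast sums were 5.16 to 10.2 CPM with both treatments, 5.19 to 8.86 CPM with lactate, 4.66 to 7.84 CPM with I-BET762 and 3.94 to 4.82 CPM in control libraries. The part of either in the results was not tested.

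HEXIM1, whose RNA commonly rises under BET inhibitors, was used to check the inhibitor labels. It had 142, 157, 115 and 127 CPM in replicates 1 to 4 given both treatments and 69.6, 86.0, 81.1 and 72.1 CPM with lactate alone. It had 149, 89.6, 113 and 114 CPM in I-BET762 libraries and 75.7, 135, 70.0 and 77.4 CPM in control libraries. The library labelled control replicate 2 therefore went against its label on this gene. That labelled I-BET762 replicate 2 was the lowest of its group, between the other I-BET762 libraries and the other control libraries. The calls that rest on those groups are also given without the libraries labelled I-BET762 replicate 2 and control replicate 2. These were picked on a gene of the inhibitor, so leaving them out can favour differences for I-BET762 and is no independent check. Over all genes, calls for I-BET762 averaged over lactate were 225 higher and 63 lower with all libraries, and 534 and 444 without these. For I-BET762 against control they were 65 and 0 with all libraries, and 6 and 4 without these.

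GC content also moved with the groups. The rank correlation across genes of a library's deviation from the mean with transcript GC content was 0.06 to 0.43 with both treatments, -0.02 to 0.32 with lactate, -0.18 to 0.17 with I-BET762 and -0.55 to -0.30 in control libraries. With exon length it was -0.40 and -0.42 in lactate replicates 1 and 4, and 0.24 and 0.10 in lactate replicates 2 and 3. It was -0.13 to 0.08 with both treatments, -0.04 to 0.16 with I-BET762 and 0.03 to 0.27 in control libraries. The 10 genes span 34.8% GC (BIRC3) to 65.4% (RELB) against a median of 48.1% over tested genes, so each result below was also fitted with a correction for GC content and exon length. The correction changed the balance of calls over all genes for both treatments against control, with 1011 higher and 987 lower against 1911 and 1134 without it.

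In numbers, few of the 10 genes passed the test in any comparison, and BIRC3, lower each time, did so most often. TNFAIP3 (lower) and RELB (higher) were called in 2 comparisons each. Calls are from edgeR's quasi-likelihood test at an adjusted p under 0.05 over 14690 genes. With both treatments against control, 1 gene was higher (RELB) and 2 were lower (TNFAIP3 and BIRC3), where 13% of all tested genes were called higher and 7.72% lower. With lactate against control, 1 was higher (NFKBIE) and 1 was lower (BIRC3), against 13.6% and 10.1% of all tested genes. Against I-BET762, with both treatments, none was higher and 1 was lower (BIRC3), against 3.34% and 1.57%. With I-BET762 against control, edgeR called none of the 10, where it called 0.442% of all tested genes higher and 0% lower. Of the 10, 3 had an unadjusted p under 0.05 there (NFKB2, RELB and TNFAIP3), and DESeq2 called 2, RELB higher and TNFAIP3 lower. For both treatments against lactate, edgeR again called none of the 10, where 0% of all tested genes were called higher and 0% lower. There, 2 of the 10 had an unadjusted p under 0.05 (TNFAIP3 and BIRC3) and DESeq2 called 0. The interaction, which asks whether the effect of lactate differed with the inhibitor present, gave no call for the 10 by edgeR and 0 by DESeq2, with 1 unadjusted p under 0.05 (NFKBIE). It gave 0% of all tested genes in either direction.

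A pair of averaged comparisons was added after the values had been seen. For I-BET762 averaged over lactate (both treatments and I-BET762 against lactate and control), 1 gene was higher (RELB) and 1 lower (TNFAIP3), against 1.53% and 0.429% of all tested genes. For lactate averaged over I-BET762 (both treatments and lactate against I-BET762 and control), none was higher and 1 was lower (BIRC3), against 16.8% and 13.4%. The median log2 fold change of the 10 genes was -0.05 for lactate, -0.10 for I-BET762 and 0.05 for both treatments, each against the same control libraries, beside medians over all tested genes of 0.03, -0.03 and -0.01. Without the libraries labelled I-BET762 replicate 2 and control replicate 2, the counts were 3 for both treatments against control, 1 for lactate against control (BIRC3), 0 for I-BET762 against control, 0 for both treatments against I-BET762 and 3 for I-BET762 averaged over lactate (RELB higher, TNFAIP3 and BIRC3 lower).

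**Figure D1:**
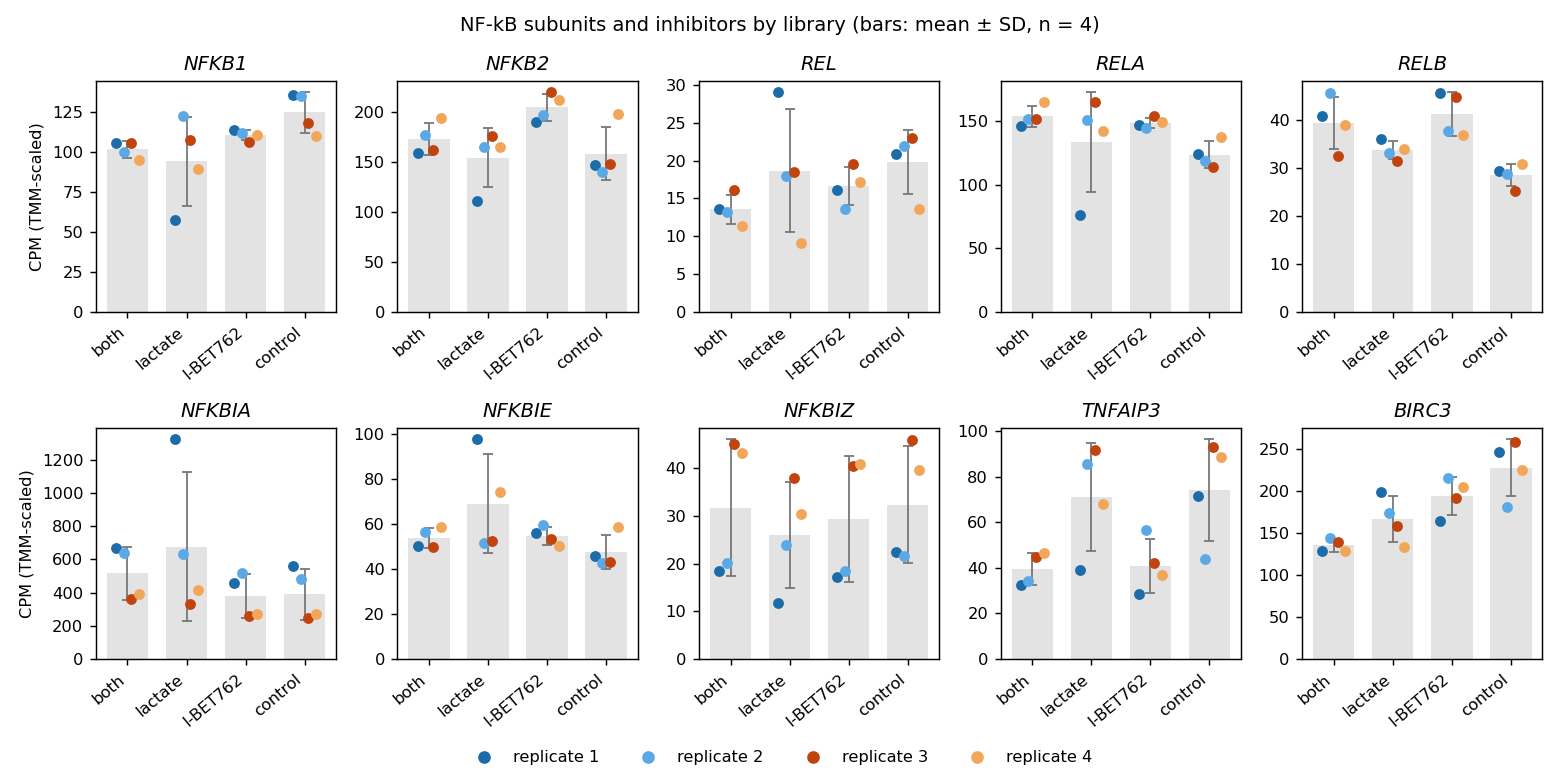
Level of each of the 10 genes in every library, as CPM on a linear axis from 0, with both treatments, lactate, I-BET762 and control from left to right. Bars and whiskers are the mean and SD of 4 libraries and points are coloured by replicate number. BIRC3 with both treatments lies at 129 to 145 CPM, under every control library, and TNFAIP3 lies low in the groups that received I-BET762.

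**Figure D2:**
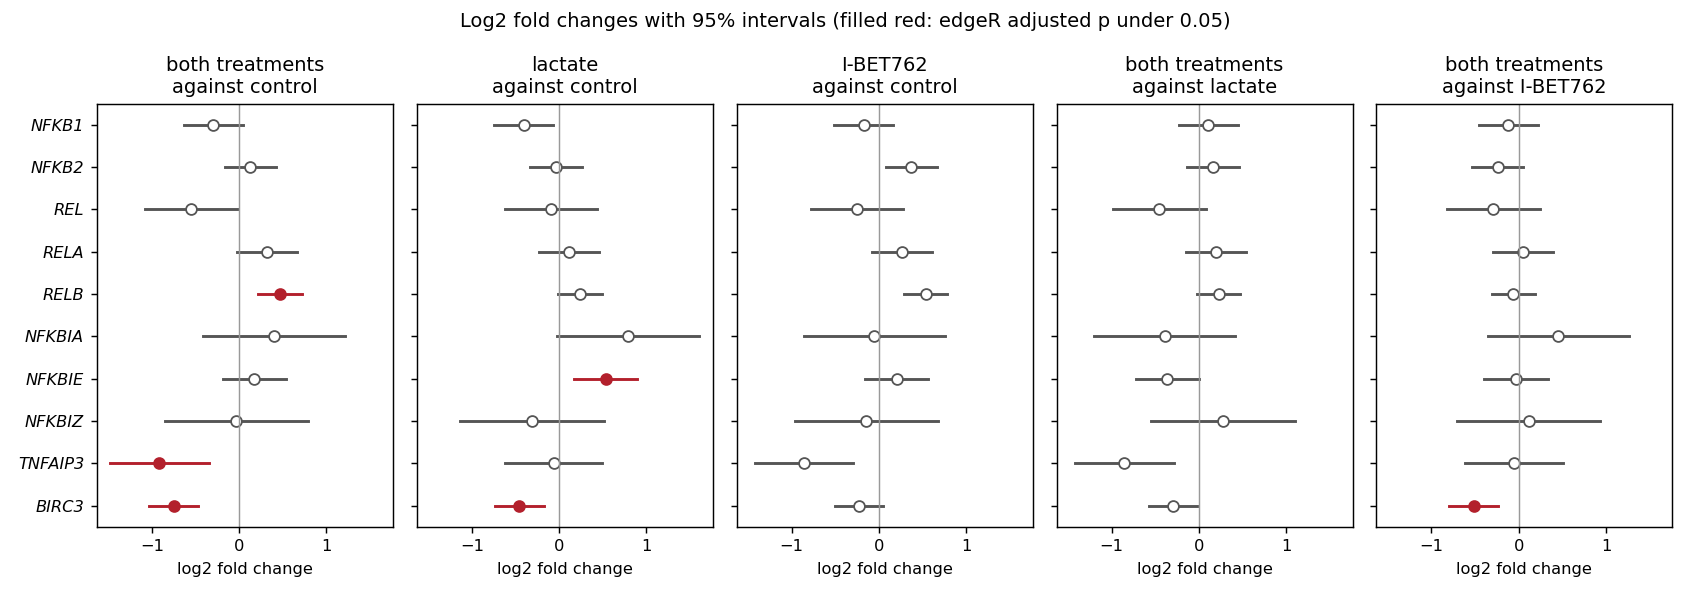
Log2 fold change of each gene with its 95% interval in 5 comparisons. Filled red points passed an edgeR adjusted p of 0.05. BIRC3 lies left of 0 in all 5 panels and passed in 3 of them, and TNFAIP3 lies near -0.9 in the 3 panels where I-BET762 is added.

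Per kilobase of exon, so that genes can be compared, NFKBIA was the most abundant of the 10, with a mean of 207 CPM per kb over the 16 libraries. NFKB2 (38.4), RELA (25.6), BIRC3 (24.1), NFKBIE (21.8) and NFKB1 (17.2) followed, then RELB (11.8), TNFAIP3 (11.2), NFKBIZ (5.06) and REL (1.30 CPM per kb). Among the subunits NFKB2 and RELA thus stood highest and REL lowest. Between neighbours in this order the ranges over libraries overlapped, apart from NFKBIA, which stood above NFKB2 in every library. REL, which encodes c-Rel and is best known from lymphoid cells, lies at chromosome 2, positions 60881521 to 60931610 (GRCh38), and 43.3% of its exon bases are shared with AC010733.2 on the same strand, so its counts are uncertain.

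NFKB1 (ENSG00000109320; chromosome 4, 102501329 to 102617302) encodes p105, the precursor of p50. It had 105.7, 100.003, 105.9 and 94.95 CPM with both treatments and 57.3, 122, 108 and 89.3 CPM with lactate. It had 114, 112, 106 and 111 CPM with I-BET762 and 136, 135, 118 and 110.0 CPM in control libraries. The libraries given both treatments all lay under the control libraries, while the lactate libraries spread widely with replicate 1 lowest. None of its differences passed the test: the log2 fold change was -0.30 ± 0.16 (SE, edgeR adjusted p = 0.207) for both treatments and -0.40 ± 0.16 (adjusted p = 0.0741) for lactate, each against control. Without lactate replicate 1 the value for both treatments was -0.30 with an adjusted p of 0.0261, and the adjusted p ran from 0.0252 to 0.369 over the alternatives. The value for lactate depended on single libraries: it was -0.23 (adjusted p = 0.111) without lactate replicate 1 and -0.56 (adjusted p = 0.0135) without lactate replicate 2.

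NFKB2 (ENSG00000077150; chromosome 10, 102394110 to 102402529) encodes p100, which acts as an inhibitor and as the precursor of p52 in the non-canonical pathway. It had 159, 177, 162 and 193 CPM with both treatments, and 110.2, 165, 175 and 165 CPM with lactate. It had 190.0, 196, 219.5 and 211 CPM with I-BET762, and 147, 140.0, 147 and 198 CPM in control libraries. Of the control libraries only replicate 4 reached the I-BET762 range, and replicate 4 of both treatments reached it too. The log2 fold change for I-BET762 against control was 0.37 (95% interval 0.08 to 0.67), with an unadjusted p of 0.0165 and an edgeR adjusted p of 0.242. With the correction for GC content and length that value was -0.0091. The sign turned under the correction for both treatments against control, with 0.13 (adjusted p = 0.556) without it and -0.46 (adjusted p = 0.0178) with it. Under the correction NFKB2 was also called lower for lactate against control (-0.53, adjusted p = 0.00906) and for both treatments against I-BET762 (-0.45, adjusted p = 0.0292). The direction of NFKB2 thus depends on this choice.

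RELB (ENSG00000104856; chromosome 19, 45001430 to 45038198), the subunit that partners p52, rose with both treatments against control and with I-BET762 averaged over lactate. It had 41.0, 45.7, 32.5 and 38.9 CPM with both treatments, and 36.2, 33.2, 31.6 and 34.0 CPM with lactate. It had 45.6, 37.8, 45.0 and 37.0 CPM with I-BET762, and 29.4, 28.8, 25.4 and 30.9 CPM in control libraries. Every treated library lay above every control library. Taking each group alone, 16.5% of all tested genes lay so above control with both treatments, 10.9% with lactate and 7.73% with I-BET762. In bulk RNA, a change in the share of cells with a transcript and a change in transcripts per cell cannot be told apart. The log2 fold change was 0.47 ± 0.12 for both treatments against control (SE, n = 4 each, edgeR adjusted p = 0.0104) and 0.53 ± 0.12 for I-BET762 against control (adjusted p = 0.0532). For I-BET762 averaged over lactate it was 0.38 ± 0.08 (adjusted p = 0.0390), a call that held in 7 of 16 fits that left out 1 library. Without the libraries labelled I-BET762 replicate 2 and control replicate 2 these values were 0.47, 0.58 and 0.40, with adjusted p of 0.0218, 0.0746 and 0.0217.

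The rise of RELB did not hold under the correction for GC content and length. RELB has the highest GC content of the 10 genes. The log2 fold change for both treatments against control became -0.38 (edgeR adjusted p = 0.0415), and that for I-BET762 averaged over lactate became 0.04 (adjusted p = 0.812). For lactate against control it was 0.24 (adjusted p = 0.141) without and -0.51 (adjusted p = 0.00960) with the correction. Over all alternatives the values for both treatments against control ran from -0.38 to 0.55, with adjusted p from 0.00181 to 0.0462. The direction of RELB thus depends on this choice.

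RELA (ENSG00000173039; chromosome 11, 65653596 to 65663094), which encodes p65, the main activating subunit, had 146, 151, 151 and 165 CPM with both treatments and 76.1, 151, 165 and 142 CPM with lactate. It had 147, 144, 154 and 149 CPM with I-BET762 and 124, 118, 113 and 138 CPM in control libraries. All libraries that received I-BET762 lay above all control libraries. With I-BET762 alone, 7.73% of all tested genes did so. The log2 fold changes were 0.32 (95% interval -0.03 to 0.66) for both treatments and 0.27 (-0.08 to 0.61) for I-BET762, each against control, with edgeR adjusted p of 0.186 and 0.630. With the correction for GC content and length they were 0.08 and 0.15. Without lactate replicate 1, in which RELA was lowest, edgeR called it higher with both treatments against control (0.31, adjusted p = 0.00604) and with lactate against control (0.30, adjusted p = 0.0148). Set against control, both treatments left 4 of the 10 genes with groups that did not overlap (NFKB1, RELA, RELB and BIRC3), where 16.5% of all tested genes had no overlap with the treated group higher and 14.8% with it lower. REL had 13.5, 13.2, 16.1 and 11.4 CPM with both treatments, 29.1, 17.9, 18.5 and 9.15 CPM with lactate, 16.2, 13.6, 19.5 and 17.2 CPM with I-BET762 and 20.8, 21.9, 23.0 and 13.6 CPM in control libraries. These ranges overlap, and the log2 fold change for both treatments against control was -0.55 ± 0.25 (edgeR adjusted p = 0.135).

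**Figure D3:**
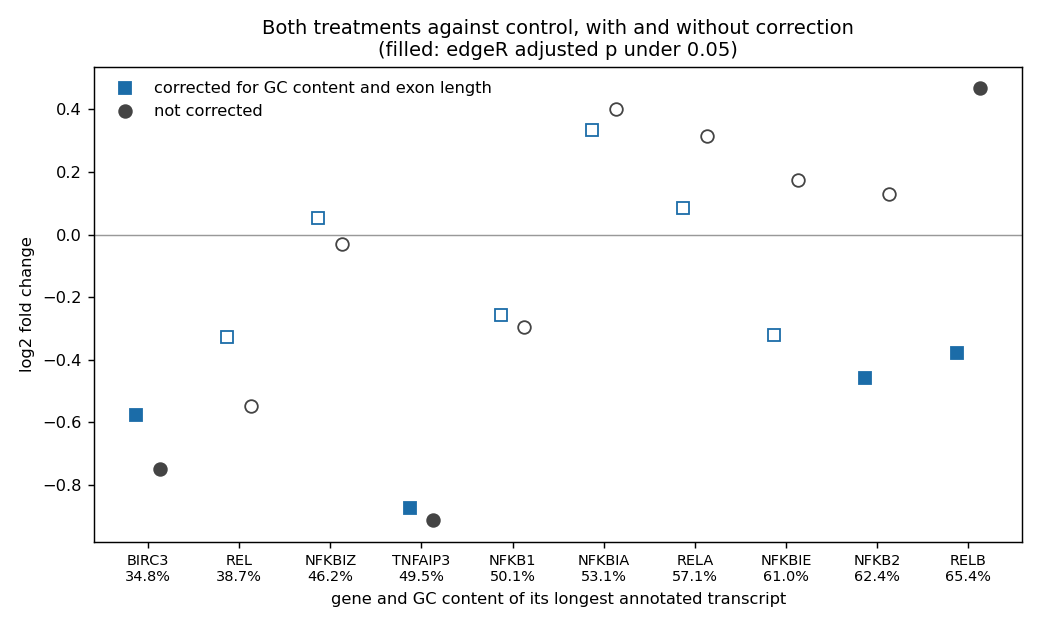
Log2 fold change for both treatments against control, with (squares) and without (circles) the correction for GC content and exon length, for the 10 genes in order of GC content. Filled symbols passed an edgeR adjusted p of 0.05. BIRC3 and TNFAIP3 are filled and under 0 in both fits, RELB changes from 0.47 to -0.38 under the correction, and NFKB2 is filled only in the corrected fit.

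NFKBIA (ENSG00000100906; chromosome 14, 35401511 to 35404749), the gene of IkB-alpha, varied more between replicate numbers than between treatments. With both treatments replicates 1 to 4 had 667, 639, 364 and 395 CPM, and with lactate 1326, 635, 334 and 417 CPM. With I-BET762 they had 459, 521, 258 and 271 CPM, and in control libraries 559, 484, 249 and 272 CPM. In all 4 groups replicates 1 and 2 lay above replicates 3 and 4. Replicate number carried 67.4% of the variance of log2 CPM and treatment group 22.8%. The log2 fold change for lactate against control was 0.79 (95% interval -0.02 to 1.61, edgeR adjusted p = 0.135). With replicate number as a block in the model it was 0.70 with an adjusted p of 0.00934, and the adjusted p ran from 0.00934 to 0.609 over the alternatives. Without lactate replicate 1, which had 1326 CPM, the value was 0.24. For lactate averaged over I-BET762 the value was 0.62 (edgeR adjusted p = 0.0912), and 0.58 (adjusted p = 0.0026) with the block. Without lactate replicate 1 that averaged value was 0.35 (adjusted p = 0.211). Within every replicate number the lactate library was above the control library. The library given both treatments was likewise above the I-BET762 library of its number. The replicate numbers did not meet the rule for pairing given below.

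NFKBIZ (ENSG00000144802; chromosome 3, 101827991 to 101861022), which encodes the nuclear protein IkB-zeta, ran the other way over replicate numbers. Replicates 1 to 4 had 18.5, 20.1, 45.1 and 43.3 CPM with both treatments and 11.8, 23.9, 38.0 and 30.5 CPM with lactate. They had 17.2, 18.5, 40.6 and 40.9 CPM with I-BET762 and 22.5, 21.6, 45.9 and 39.6 CPM in control libraries. Replicates 1 and 2 lay below replicates 3 and 4 in all 4 groups. Replicate number carried 87.2% of the variance of NFKBIZ, against a median of 17.5% over all tested genes, and 13 genes had a larger share. Over all tested genes, 2.55% had replicates 1 and 2 above 3 and 4 in every group, as NFKBIA had, and 2.59% had them below, as NFKBIZ had. None of the NFKBIZ differences between groups passed the test. For lactate against control its log2 fold change was -0.31 (95% interval -1.13 to 0.52), and for both treatments against control -0.03 (-0.85 to 0.79). The labels do not say what a replicate number stands for.

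**Figure D4:**
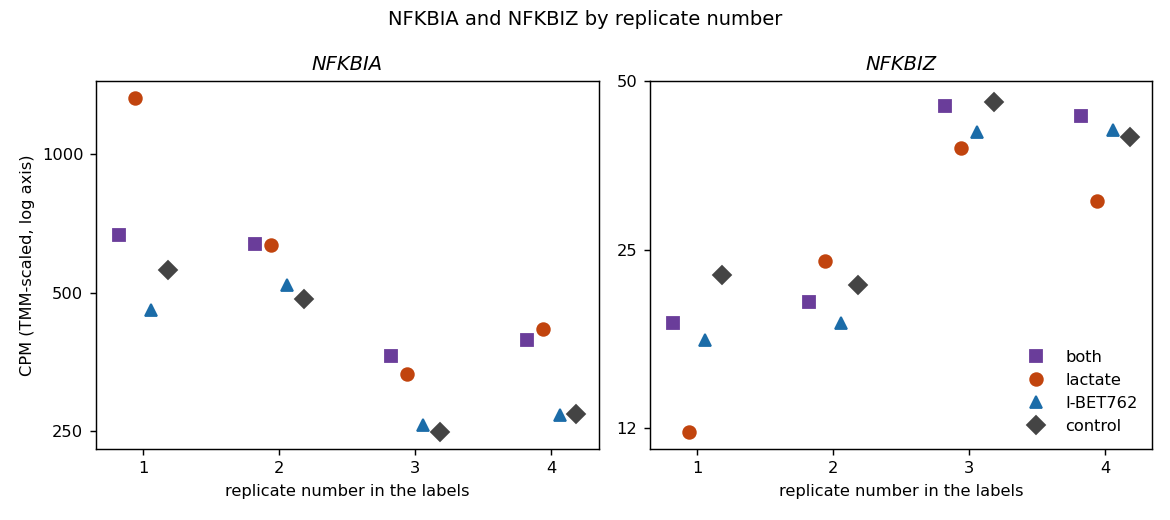
Level of NFKBIA (left) and NFKBIZ (right) in CPM on a log axis, by the replicate number in the labels, with 1 symbol per group. NFKBIA is 459 to 1326 CPM in replicates 1 and 2 and 249 to 417 CPM in replicates 3 and 4, while NFKBIZ is 11.8 to 23.9 CPM in replicates 1 and 2 and 30.5 to 45.9 CPM in replicates 3 and 4.

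NFKBIE (ENSG00000146232; chromosome 6, 44258166 to 44265788) encodes IkB-epsilon, a slower inhibitor that NF-kB induces. It had 50.1, 56.4, 49.7 and 58.8 CPM with both treatments, and 97.8, 51.4, 52.6 and 74.5 CPM with lactate. It had 56.1, 59.7, 53.3 and 50.4 CPM with I-BET762, and 46.0, 42.5, 43.2 and 58.9 CPM in control libraries. The lactate range overlaps the control range, and lactate replicate 1 stands well above the rest. NFKBIE rose with lactate against control, by 0.53 ± 0.17 on the log2 scale (SE, edgeR adjusted p = 0.0348). Without lactate replicate 1 the value was 0.32 (adjusted p = 0.0934), and with the correction for GC content and length it was 0.01 (adjusted p = 0.962). The call was also lost without control replicate 1, 2 or 3, without lactate replicate 4, and without the libraries labelled I-BET762 replicate 2 and control replicate 2. Over the alternatives the adjusted p ran from 0.00929 to 0.993.

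TNFAIP3 (ENSG00000118503; chromosome 6, 137867188 to 137883312) encodes A20, the ubiquitin-editing enzyme that shuts off signaling to IKK. It fell with I-BET762 averaged over lactate, and with both treatments against control. With both treatments it had 32.5, 34.0, 44.6 and 46.3 CPM, and with lactate alone 38.9, 85.6, 91.5 and 68.0 CPM. With I-BET762 alone it had 28.3, 56.5, 42.1 and 36.7 CPM, and in control libraries 71.4, 43.8, 92.9 and 88.4 CPM. The groups with and without the inhibitor overlap through lactate replicate 1 and the library labelled control replicate 2. The library labelled I-BET762 replicate 2 was the highest of those given the inhibitor, at 56.5 CPM. It lay under every library without the inhibitor apart from lactate replicate 1 and control replicate 2. On HEXIM1, control replicate 2 went against its label and I-BET762 replicate 2 was the lowest of its group.

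TNFAIP3 fell by 0.91 ± 0.27 on the log2 scale with both treatments against control, with means of 39.4 ± 7.10 and 74.2 ± 22.3 CPM (SD, n = 4 each, edgeR adjusted p = 0.0232). For I-BET762 averaged over lactate it fell by 0.86 ± 0.19, with means of 40.1 and 72.6 CPM (adjusted p = 0.0390). Within the single comparisons the sizes were nearly the same, -0.86 ± 0.27 for I-BET762 against control (adjusted p = 0.133) and -0.85 ± 0.27 for both treatments against lactate (adjusted p = 0.237), but neither passed the test. The interaction was 0.01 (95% interval -0.79 to 0.80), so a difference between the inhibitor's effect with and without lactate was not detected within an interval that is wide. Lactate against control gave -0.06 (95% interval -0.62 to 0.50).

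Without the libraries labelled I-BET762 replicate 2 and control replicate 2, TNFAIP3 had a log2 fold change of -1.10 with both treatments against control (edgeR adjusted p = 0.00583). It had -1.24 with I-BET762 against control (adjusted p = 0.0574) and -1.04 for the inhibitor averaged over lactate (adjusted p = 0.00485). With the correction for GC content and length the value for both treatments against control was -0.88 (adjusted p = 0.0239). The call for both treatments was lost when control replicate 3 or 4 or replicate 1 or 2 of both treatments was left out, and the averaged call held in 5 of 16 such fits. The adjusted p ran from 0.000818 to 0.0844 over the alternatives for both treatments and from 7.12e-05 to 0.107 for the averaged comparison, and the log2 value was under -0.78 in all of them.

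BIRC3 (ENSG00000023445; chromosome 11, 102317450 to 102339403) encodes cIAP2, a ubiquitin ligase of the TNF receptor complex and an inhibitor of apoptosis. It fell with lactate, alone and with I-BET762. With both treatments it had 129, 145, 139.7 and 129 CPM, and with lactate 199.6, 174, 158 and 134 CPM. With I-BET762 it had 165, 216, 191 and 205 CPM, and in control libraries 247, 181, 258 and 225 CPM. The libraries given both treatments all lay under all I-BET762 libraries and all control libraries, and the lactate libraries overlapped the control libraries. Of all tested genes, 11.3% lay so under I-BET762 and 14.8% under control. The order of the means was both treatments (136 ± 7.85 CPM), lactate (166 ± 27.6), I-BET762 (194 ± 22.2) and control (228 ± 34.1 CPM; SD, n = 4 each). Among neighbours in that order, both treatments against lactate (-0.29, edgeR adjusted p = 0.301) did not pass the test. Neither did I-BET762 against control (-0.23, adjusted p = 0.587), and lactate against I-BET762 was not tested.

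The log2 fold change of BIRC3 was -0.75 ± 0.13 with both treatments against control (edgeR adjusted p = 0.00123). It was called lower in all 27 alternatives, which gave -0.87 to -0.57 with adjusted p from 3.49e-06 to 0.00725. With lactate averaged over I-BET762 it was -0.49 ± 0.09 (adjusted p = 0.00128), with means of 151 and 211 CPM, and it was called in all 26 alternatives (adjusted p from 1.37e-05 to 0.00583), -0.37 with the correction for GC content and length among them. Without the libraries labelled I-BET762 replicate 2 and control replicate 2 the value for both treatments against control was -0.85 (adjusted p = 0.000848), and that for lactate averaged over I-BET762 was -0.51 (adjusted p = 0.00147). BIRC3 has the lowest GC content of the 10 genes.

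The single comparisons of lactate were less stable for BIRC3. With lactate against control the log2 fold change was -0.45 ± 0.13 (edgeR adjusted p = 0.0215), and with the correction for GC content and length it was -0.26 (adjusted p = 0.132). That call was also lost without control replicate 1, control replicate 3 or lactate replicate 4, and its adjusted p ran from 0.00487 to 0.135. It held without the libraries labelled I-BET762 replicate 2 and control replicate 2 (-0.55, adjusted p = 0.0121). With both treatments against I-BET762 it was -0.52 ± 0.13 (adjusted p = 0.0312), and -0.46 without the libraries labelled I-BET762 replicate 2 and control replicate 2 (adjusted p = 0.0649, with a range of 0.00223 to 0.108 over the alternatives). That call was also lost without I-BET762 replicate 2, 3 or 4 or any 1 of the libraries given both treatments. The interaction was -0.06 (95% interval -0.46 to 0.33). I-BET762 against control gave -0.23 (95% interval -0.51 to 0.05, adjusted p = 0.587), and -0.38 without the same 2 libraries (adjusted p = 0.198). For I-BET762 averaged over lactate, leaving them out gave a call that all 16 libraries did not (-0.34, adjusted p = 0.0416).

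Genes whose levels ran most like each member were taken by Pearson's r of log2 CPM over the 16 libraries. Depth, GC content, group and replicate number are shared by all genes in these libraries. For BIRC3 they were PM20D2 (0.97), BCAT1 (0.96) and ZNF37A (0.96), and for TNFAIP3 they were KCNQ3 (0.95), BMPER (0.95) and ERRFI1 (0.95). For NFKBIA they were INSIG1 (0.96), DNAJB9 (0.95) and DDB2 (0.95), and for NFKBIZ they were CSTF2T (0.96), GALNT7 (0.93) and MMUT (0.93). The subunit NFKB2 ran most like SREBF1 (0.92), NKIRAS2 (0.91), which encodes a small GTPase-like protein that binds IkB, and TNFRSF1A (0.91), the main TNF receptor. NFKB1 ran like FAT1 (0.97) and POLR1B (0.97), REL like SEPTIN11 (0.95), TRIP11 (0.93) and ENAH (0.88), and RELA like MINK1 (0.97), ZNF687 (0.97) and SHC1 (0.96). RELB ran like FAM131A (0.96), BRAT1 (0.95) and MAF1 (0.93), and NFKBIE like TMEM219 (0.97), DUSP23 (0.97) and CTDNEP1 (0.96). Among the 10 genes themselves the strongest relations were negative, -0.91 between NFKB1 and NFKBIE and -0.89 between NFKBIA and NFKBIZ, and the highest was 0.81 between NFKB2 and RELA. Lactate replicate 1 was the lowest library for NFKB1 and the highest for NFKBIE. Replicate number carried 67.4% of the variance of NFKBIA and 87.2% of that of NFKBIZ. TNFAIP3 and BIRC3 had an r of 0.41.

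The rest of the pathway was followed in 6 lists with 94 genes, of which 80 were tested. With lactate against control edgeR called 12 of the 80 higher and 9 lower, where it called 13.6% and 10.1% of all tested genes. The counts were 6 and 6 with the correction for GC content and length, and 7 and 3 without the libraries labelled I-BET762 replicate 2 and control replicate 2. Set against control, both treatments gave 8 called higher and 2 lower, where 13% and 7.72% of all tested genes were, with 1 and 6 under the correction and 8 and 3 without those libraries. Apart from the losses given with their genes below, each call named for these lists held without those libraries. With I-BET762 against control edgeR called 0, with 9 higher and 2 lower at an unadjusted p under 0.05 and 5 called by DESeq2. For both treatments against lactate it called 0, with 6 higher and 9 lower at an unadjusted p under 0.05 and 1 called by DESeq2. Against I-BET762, both treatments gave 0 calls, with 6 higher and 10 lower at an unadjusted p under 0.05 and 6 called by DESeq2. The interaction gave 0, with 1 higher and 6 lower at an unadjusted p under 0.05 and 0 by DESeq2.

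Among NF-kB targets, 20 of 24 were tested and 5 rose with lactate against control, where 13.6% of all tested genes did. Their median log2 fold change was 0.36, against 0.03 over all tested genes. CCL20, a chemokine, averaged 6.76 CPM with lactate and 2.52 CPM in control libraries, a log2 fold change of 1.40 ± 0.31 (edgeR adjusted p = 0.00522). IL6, a cytokine, averaged 27.1 CPM with lactate and 11.3 CPM in control libraries (1.25 ± 0.32, adjusted p = 0.0117). CXCL1, a chemokine that draws neutrophils, averaged 32.5 CPM with lactate and 15.5 CPM in control libraries (1.06 ± 0.23, adjusted p = 0.00485). LCN2, the iron-binding lipocalin, changed by 1.00 ± 0.30 (adjusted p = 0.0238). The fifth was GADD45B, a stress-response gene (0.55, adjusted p = 0.0383), named after its value was seen. With the correction for GC content and length, CCL20 (1.23), IL6 (1.18) and CXCL1 (0.88) were still called, with adjusted p of 0.00269, 0.0113 and 0.00166, while LCN2 (0.64, adjusted p = 0.120) and GADD45B (0.06, adjusted p = 0.803) were not. Without the libraries labelled I-BET762 replicate 2 and control replicate 2, CCL20 (1.33, adjusted p = 0.0198), IL6 (1.06, adjusted p = 0.0426) and CXCL1 (0.98, adjusted p = 0.0178) were called too, while LCN2 (0.78, adjusted p = 0.0762) and GADD45B (0.54, adjusted p = 0.0641) were not.

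With both treatments CXCL1 averaged 15.4 CPM and CCL20 3.21 CPM, and IL6 averaged 15.6 CPM. In the comparison of both treatments with control, 1 of the 20 targets was called, the adhesion molecule ICAM1, higher by 0.62 ± 0.18 (edgeR adjusted p = 0.0204), and 0.38 (adjusted p = 0.156) with the correction. For I-BET762 averaged over lactate, CXCL1 was the single target called, at -0.76 ± 0.16 (adjusted p = 0.0390), and -0.61 (adjusted p = 0.0329) with the correction. The median log2 fold change of the 20 targets for both treatments against lactate was -0.33 (all tested genes, -0.0007). None of the 20 was called there or for the interaction. For lactate averaged over I-BET762, 5 were higher, where 16.8% of all tested genes were. They were IL6 (1.11, edgeR adjusted p = 0.0020), CCL20 (1.03, 0.0026), CXCL1 (0.76, 0.0029), LCN2 (0.84, 0.0073) and GADD45B (0.38, 0.033). With the correction all but GADD45B (0.06, adjusted p = 0.733) were still called. GADD45B was also lost without the libraries labelled I-BET762 replicate 2 and control replicate 2 (0.31, 0.0943). Those comparisons share the lactate and control libraries with the ones above.

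Among receptor adaptors and ubiquitin ligases, 15 of 16 were tested. TRADD, which links TNF receptor 1 to its signaling complex, rose with lactate by 0.91 ± 0.20 (edgeR adjusted p = 0.00489) and SHARPIN, a subunit of the linear ubiquitin ligase, by 0.78 ± 0.17 (adjusted p = 0.00553). With the correction for GC content and length, TRADD had 0.14 (adjusted p = 0.672) and SHARPIN -0.06 (adjusted p = 0.736). BIRC2, which encodes cIAP1 and lies beside BIRC3 on chromosome 11, fell by 0.33 ± 0.10 with lactate (adjusted p = 0.0212) and by 0.42 ± 0.10 with both treatments against control (adjusted p = 0.00565). The corrected value for both treatments was -0.28 (adjusted p = 0.0256), and that for lactate, no longer called, was -0.22 (adjusted p = 0.0580). BTRC, part of the ligase that marks IkB for breakdown, fell by 0.52 with lactate (adjusted p = 0.0387). That call was lost with the correction (-0.38, adjusted p = 0.0596) and without the libraries labelled I-BET762 replicate 2 and control replicate 2 (-0.53, adjusted p = 0.0737). So both cIAP genes were lower with both treatments against control in both fits.

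Among the IKK complex and its upstream kinases all 14 were tested, and TBK1 (-0.53, edgeR adjusted p = 0.0224) and TAB3 (-0.54, adjusted p = 0.0460) fell with lactate, while TAB1 rose with both treatments against control (0.64, adjusted p = 0.0138). With the correction for GC content and length none of those 3 was called, at -0.40 for TBK1 (adjusted p = 0.0907), -0.31 for TAB3 (0.107) and 0.20 for TAB1 (0.264). TAB1 was called without the libraries labelled I-BET762 replicate 2 and control replicate 2 (0.73, adjusted p = 0.0143), and TBK1 (-0.51, 0.0605) and TAB3 (-0.59, 0.0664) were not. MAP3K14, which encodes NIK, the kinase of the non-canonical pathway, fell for lactate averaged over I-BET762, by 0.48 ± 0.15 (adjusted p = 0.0202), and -0.69 (adjusted p = 0.000362) with the correction.

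Among deubiquitinases and partners of A20, 11 of 12 were tested. OTULIN (-0.49, edgeR adjusted p = 0.0172), USP7 (-0.44, adjusted p = 0.0364) and TAX1BP1 (-0.29, adjusted p = 0.0499) fell with lactate against control, and TNIP2 rose with both treatments against control (0.51, adjusted p = 0.00797). With the correction the values were -0.29 for OTULIN (adjusted p = 0.0529), -0.28 for USP7 (0.0718), -0.08 for TAX1BP1 (0.713) and -0.04 for TNIP2 (0.819), so none of these calls held. TNIP2 was called without the libraries labelled I-BET762 replicate 2 and control replicate 2 (0.54, adjusted p = 0.0154), and OTULIN (-0.45, 0.0569), USP7 (-0.43, 0.0842) and TAX1BP1 (-0.31, 0.0760) were not.

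Among receptors and ligands, 15 of 21 were tested, and 4 rose and 1 fell with lactate against control, where 13.6% and 10.1% of all tested genes did. CD40 (0.45, edgeR adjusted p = 0.0262), TNFRSF12A (0.44, adjusted p = 0.0333) and TNFSF12 (0.89, adjusted p = 0.0404) were among those that rose, and TNFRSF10B, a TRAIL receptor, fell (-0.46, adjusted p = 0.0239). Of these, TNFRSF10B was still called with the correction (-0.42, adjusted p = 0.0206), as was LTBR, the lymphotoxin receptor, at 0.28 (adjusted p = 0.0367). LTBR, named after its value was seen, had 0.33 without the correction (adjusted p = 0.0471). Leaving out the libraries labelled I-BET762 replicate 2 and control replicate 2, TNFRSF12A (0.57, adjusted p = 0.0151) and TNFRSF10B (-0.48, 0.0470) were called, and CD40 (0.42, 0.0713), TNFSF12 (0.64, 0.0944) and LTBR (0.33, 0.0890) were not. TLR5, the flagellin receptor, rose with both treatments against control (0.90, adjusted p = 0.0258), and 1.02 with the correction (adjusted p = 0.0112). Among other IkB proteins and cofactors 5 of 7 were tested. With lactate against control NKRF, a repressor of NF-kB targets, fell (-0.38, adjusted p = 0.0143), and so it did with the correction (-0.30, adjusted p = 0.0453).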

How the data were processed

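The deposited table holds raw read counts for each Ensembl gene in 16 libraries, as the authors made them. Per the labels' protocols, each poly(A) library was made from 800 ng of RNA with a directional kit and read as single ends of 75 bases. The submitters' processing notes name the tools STAR 2.6.1c and DESeq and the builds GRCh38.p12 and hg38. Which program counted reads, with which strand setting and annotation release, is not given in the sources used. RELA shares 9 exon bases and TNFAIP3 95 (1.88%) with genes on the opposite strand.

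From these counts, edgeR 4.0.16 in R 4.3.3 was run with TMM scaling, a filter (minimum count 10 and minimum total 15 by group), 1 model of group means for all 16 libraries, two-sided quasi-likelihood tests and Benjamini-Hochberg adjustment over 14690 genes. Standard errors and 95% intervals come from the same fit. The procedure was tested on simulated counts drawn without trends in GC content, exon length or replicate number, so that test does not cover these trends. Of the comparisons, 6 were planned and 2 averaged ones were added after values had been seen. Coordinates, exon lengths and GC content are from GENCODE 29 on GRCh38, and GC content and length were known for 99.4% of tested genes. The correction for them fits a spline of 5 degrees of freedom per library. Alternatives were RLE factors, totals alone, other filters, a replicate block, DESeq2 1.42.0, only the groups compared, and leaving out libraries. The replicate numbers did not meet the rule for pairing. The labels call the replicates independent and do not say whether they were separate cultures, so p-values measure the spread between these libraries. Symbols outside the 10 genes are named where they had the smallest p in their list (up to 4 per list and comparison) or the 3 highest correlations with a member among genes of at least 5 CPM. The 10 genes and the lists were chosen with earlier results of these data known. Results for some genes that these rules pick are not reported here.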

Additional observations from a re-analysis of the deposited data

Results flagged for a closer look

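In NFKB2, 1 library stood apart from the other 3 of its group in 2 groups. In control libraries replicate 4 had 198 CPM against 140.0 to 147 CPM in the others, a gap of 0.871 of the group's range. In lactate libraries replicate 1 had 110.2 CPM against 165 to 175 CPM in the others, a gap of 0.837 of the range. Both gaps exceed Dixon's critical value of 0.829 for 4 libraries. In all, 40 sets of 4 libraries were tested, and chance alone puts about 1 in 20 past this value. Lactate replicate 1 is also the library with the fewest counts, 10711859.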

How the results depend on the processing

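Of the 2130 refitted log2 fold changes of single genes, 2025 kept their side of the threshold with no change of sign in a called value (among them some that changed sign and were called in neither fit), 50 lost their call, 46 gained one and 9 changed sign with a call on one side or both. All 9 were under the correction for GC content and length: RELB with lactate against control (-0.51, and -0.51 with replicate block too), with both treatments against control (-0.38 and -0.38) and with lactate averaged over I-BET762 (-0.42 and -0.42), NFKB2 with both treatments against control (-0.46 and -0.45), and NFKBIE with lactate against control (-0.0030 with replicate block). The number of the 10 genes called moved as follows, with moves of up to 1.5 times given last. For lactate against control, from 2, it was 0 with only those groups fitted and 1 without the libraries labelled I-BET762 replicate 2 and control replicate 2 (the doubted libraries), and 0 to 3 leaving out 1 library. For I-BET762 against control, from 0, it was 2 with no filter and 2 with DESeq2, 1 with a mean of at least 5 CPM, 1 with replicate block, 1 with only those groups, 1 without the doubted libraries and with replicate block, and 0 to 2 leaving out 1 library. For both treatments against I-BET762, from 1, it was 2 under the GC correction, with and without replicate block, 2 with only those groups, 0 without the doubted libraries with or without replicate block, and 0 to 1 leaving out 1 library. For both treatments against lactate, from 0, it was 1 with no filter and 1 without the doubted libraries and with replicate block. For both treatments against control, from 3, it was 6 with only those groups and 2 to 6 leaving out 1 library (6 without lactate replicate 1). For I-BET762 averaged over lactate, from 2, it was 1 under the GC correction with or without replicate block and 0 to 2 leaving out 1 library. For lactate averaged over I-BET762, from 1, it was 2 with no filter, 2 with replicate block, 4 under the GC correction, 5 with replicate block as well, 2 without the doubted libraries and with replicate block, and 1 to 3 leaving out 1 library. Smaller moves were to 3 for lactate against control with no filter, with replicate block, and with that block under the GC correction, to 3 for I-BET762 averaged over lactate without the doubted libraries, with or without replicate block, and to 4 for both treatments against control under the GC correction, with or without replicate block. Under the GC correction the genes called for lactate against control were NFKB2 and RELB, both lower, and not NFKBIE and BIRC3. The replicate numbers did not meet the rule for pairing, an r over 0.1 in every pair: same-numbered libraries had r from -0.26 to 0.42, over 0.1 in 3 of 4 pairs in every comparison of 2 groups except I-BET762 against control (2 of 4), and 7 of 16 libraries correlated best with a library of their own number. The block moved the calls over all genes for lactate against control to 2249 higher and 1995 lower, against 2003 and 1483. The cause was not tested. Every one of the 10 genes had at least 116 counts in each library, against a filter of 10, and NFKBIZ (from 116) and REL (from 123) had the fewest.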
